A study of Mus musculus with 55 samples.

Results

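Metabotropic glutamate receptors and their Homer scaffolds were followed through pyramidal neurons taken one by one from mouse prefrontal cortex. The set holds 9 of the 22800 gene symbols counted, taken by name. It comprises 6 receptors (Grm5 of group 1, Grm2 and Grm3 of group 2, Grm4, Grm7 and Grm8 of group 3) and 3 scaffolds (Homer1, Homer2 and Homer3). Each sample was the cytosol of 1 neuron, drawn into a patch pipette and sequenced from total RNA. The neurons that passed quality control were 6 D1 and 7 D2 cells of knockout animals (Fmr1-/y, labelled Pyramidal D1 or D2 Cell, aged 31 and 32 days for D1 and 32 days for D2) and 15 D1 and 26 D2 cells labelled No Knock Out, called wild-type here (aged 28 to 34 days for D1 and 29 to 35 days for D2). D1 and D2 name dopamine receptor types. The labels do not say how a cell was assigned to its kind, nor its strain or animal. Each group was therefore taken as 1 sample. No test between groups was made, and every SD is a spread between cells.

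Metabotropic glutamate receptors are G-protein-coupled receptors for the main excitatory transmitter of the cortex. Group 1 receptors couple through Gq to phospholipase C, calcium release and local protein synthesis. Groups 2 and 3 couple through Gi/o to lower adenylyl cyclase activity, and often sit on presynaptic terminals, where they restrain transmitter release. Homer proteins bind group 1 receptors and tie them to Shank scaffolds and to calcium channels of the endoplasmic reticulum. FMRP, the RNA-binding protein encoded by Fmr1, restrains protein synthesis downstream of group 1 receptors, and the mGluR account of fragile X holds that this signalling runs unchecked when FMRP is lost.

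The short ligand through which Homer proteins bind is shown first, because it links Grm5, alone among the receptors here, to the scaffolds. The 15 bases that encode this Homer ligand motif stand in capitals below, with 6 flanking coding bases on each side, as read from the longest complete coding transcripts of GENCODE vM21 (GRCm38).
Grm5, chr7:88130717-88130743, plus strand: ctcactCCACCATCGCCCTTCagggac
Shank3, chr15:89549197-89549223, plus strand: gtgccaCCCCCTGAAGAGTTTgccaat
Shank1, chr7:44353575-44353601, plus strand: ctgcctCCACCCCTGGAGTTTtccaat
Dnm3, chr1:162010963-162010989, minus strand: ggagctCCCCCAGTTCCATTCcgtcct
In Grm5 the ligand starts at codon 1156 of 1203, in the intracellular tail, which is where Homer is known to bind. Shank1 and Shank3 are scaffolds of the postsynaptic density, and Dnm3 is a dynamin that Homer links to the endocytic zone. Of the 6 receptors searched, 3 held a match. Those of Grm2 (codon 186 of 872) and Grm7 (codon 200 of 922) lie in the extracellular part of the receptor. Among 24 other genes of Homer partners and receptor scaffolds, 7 held a match. A match is a description of letters and not of binding in these cells.

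Total counts in genes ran from 260943 to 10673072 per cell. All 6 knockout D1 and 7 knockout D2 cells lacked Fmr1 reads, which were present in 8 of 15 D1 and 13 of 26 D2 cells of the wild type. The number of genes with a read ran from 1511 to 9938 per cell. Cells with at least 4000 such genes, called gene-rich here, numbered 6 of 6 in the knockout D1 group, 9 of 15 in wild-type D1, 6 of 7 in knockout D2 and 13 of 26 in wild-type D2. Levels are given as CPM, counts scaled to a cell total of 1000000. Groups were set against each other by their average log2(CPM + 1), the first minus the second. Its median over all measured genes was 0.98 for knockout against wild-type D1 cells, 0.56 for knockout against wild-type D2 cells, -0.14 for wild-type D1 against D2 cells and 0.29 for knockout D1 against D2 cells. This median was subtracted, and differences stated below as centred are relative to it. A gene is called higher or lower where its centred difference is at least 1, a factor of 2 on the linear scale.

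Reads of these genes went with gene richness. In gene-rich cells a median of 6.5 of the 9 genes had a read (3 to 9, n = 34 cells). In the 20 other cells the median was 1 (0 to 3). All 4 cells without a read of any member were among the latter. Homer1, the most broadly read member, was found in 34 of 34 gene-rich and 10 of 20 other cells. Grm5 was found in 33 of 34 and 5 of 20, and Grm2 and Grm4 in 16 of 34 and 15 of 34, and in 0 of 20 other cells each. Since knockout D1 cells were all gene-rich, values for gene-rich cells alone are given beside the main results for the 9 genes below.

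**Figure D1:**
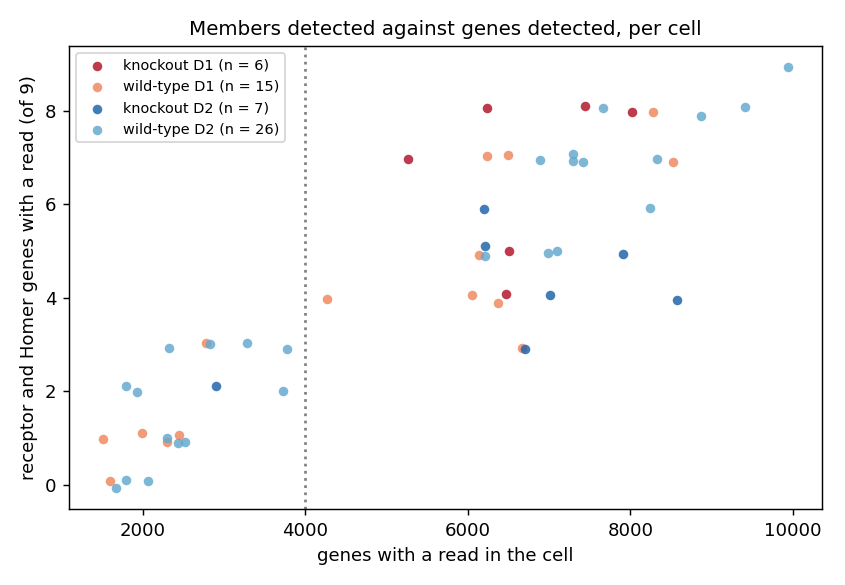
Each point is 1 cell. The x axis gives the number of genes with a read, the y axis the number of the 9 receptor and Homer genes with a read (points are shifted slightly in height to show overlaps), and the dotted line marks 4000 genes. Cells left of the line had reads of 0 to 3 of the genes and cells right of it of 3 to 9.

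Per kilobase of merged exons, which allows levels of different genes to be compared, Homer1 (22.5 ± 27.7 CPM per kb, SD, n = 54) and Grm5 (21.8 ± 26.9) stood highest over all cells. Grm7 (18.6 ± 32.4), Grm2 (13.7 ± 38.6), Grm8 (9.17 ± 18.5), Homer3 (6.85 ± 19.995), Grm3 (5.97 ± 19.9), Homer2 (4.48 ± 10.1) and Grm4 (3.55 ± 12.3) followed. No neighbours in this order differed by more than their spread between cells. The order was not the same in each group. Grm2 had the highest mean in knockout D1 cells, at 76.2 ± 91.9 CPM per kb, against 11.8 ± 21.7 in wild-type D1 cells. Homer1 stood above Grm2 in knockout D1 cells by the median (54.5 against 37.9 CPM per kb) and in summed counts (69.2 against 63.0). Grm2 had no read in knockout D2 cells, against 4.13 ± 10.7 CPM per kb in wild-type D2 cells. Levels varied widely between cells: Grm7, for example, had at most 5 reads in 3 of the 32 cells where it was found, and reached 1115 CPM.

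**Figure D2:**
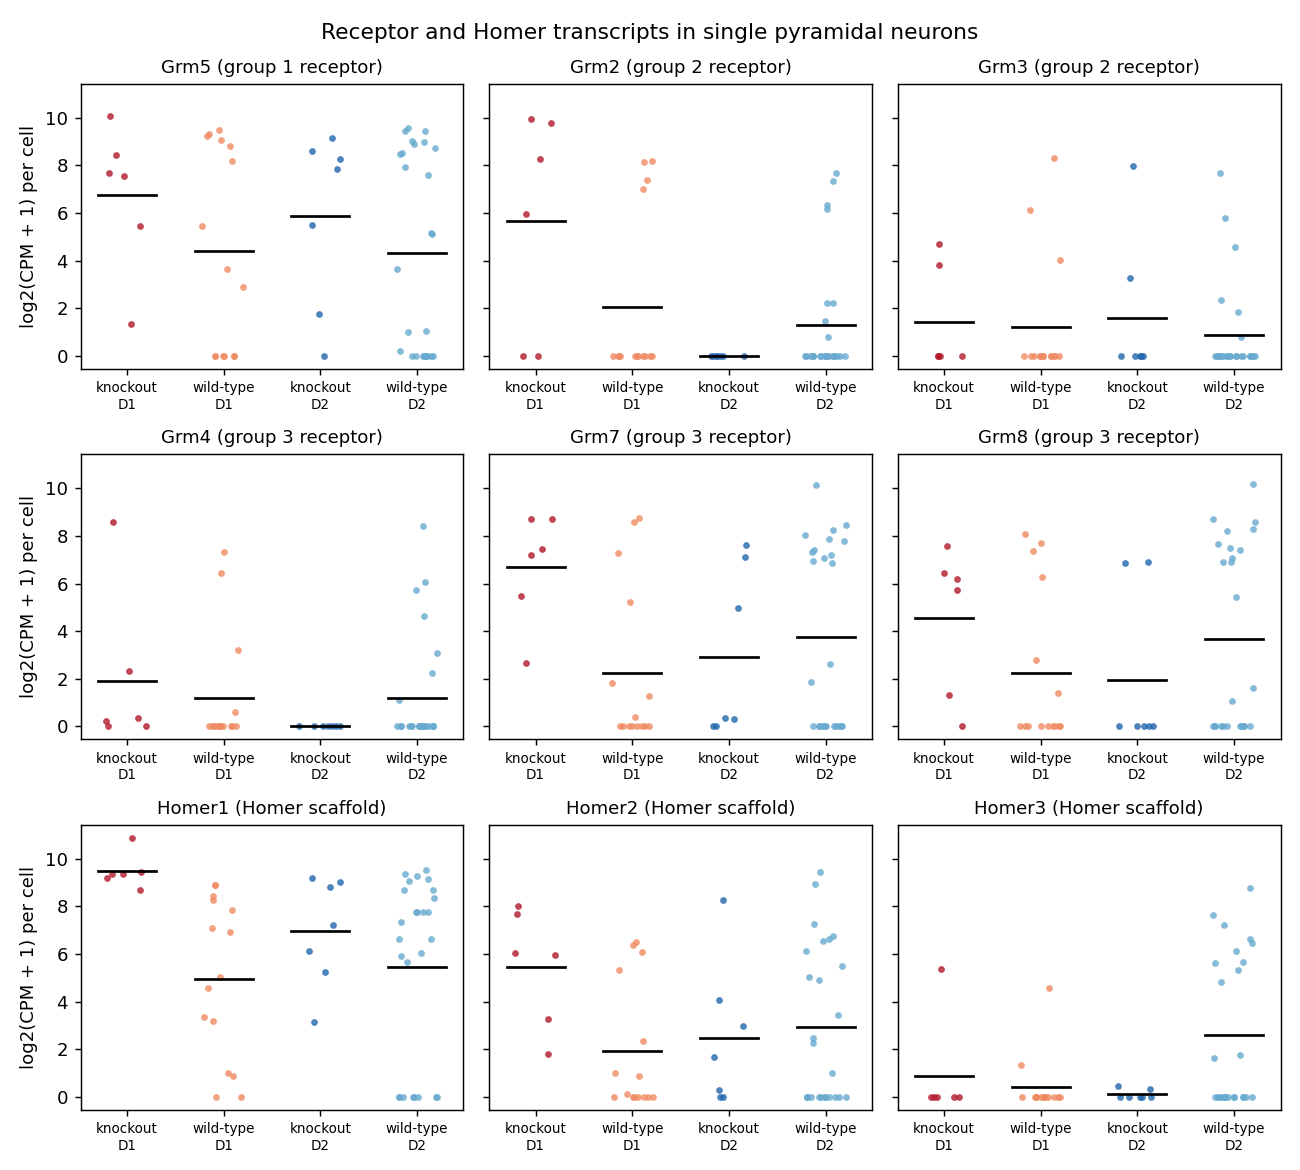
Each panel shows 1 gene and each point 1 cell, with log2(CPM + 1) on the y axis. Groups run from left to right as knockout D1 (6 cells), wild-type D1 (15), knockout D2 (7) and wild-type D2 (26), and black bars are group means. The knockout D1 cells lie close together for Homer1, and the knockout D2 cells all lie at 0 for Grm2 and Grm4.

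In D1 neurons, knockout cells were compared with wild-type cells to ask how receptor and scaffold transcripts stand when Fmr1 is lost. Of the 9 genes, 6 were called higher in knockout D1 cells (Homer1, Grm7, Grm2, Homer2, Grm5 and Grm8) and 0 lower, where 27.9% of the 10792 measured genes were called higher and 25% lower. All 9 passed the filter on low values. In gene-rich cells alone 4 were called higher (Homer1, Grm7, Grm2 and Homer2) and 0 lower, with no share of all genes computed for these cells. The median centred difference of the 9 was 1.37, against 0 for all measured genes by construction.

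Homer1 (ENSMUSG00000007617, chromosome 13, 93299635 to 93405129, plus strand, GRCm38) encodes long scaffold forms and a short form that neurons make on strong activity and that uncouples the receptor from its partners. The counts are per gene and do not tell these forms apart. In the 6 knockout D1 cells it had 410.5 CPM at the lowest, 653 at the median and 1903 at the highest. In the 15 wild-type D1 cells it had 0, 32.1 and 481 CPM at the same points. Of the 6 knockout cells, 5 lay above the highest wild-type D1 cell, and the sixth lay within the wild-type range. At least 5 of 6 knockout cells lay above the highest wild-type D1 cell for only 0.306% of all measured genes. No such share was computed for the smaller numbers of cells given for other genes below. The mean was 817 ± 542 CPM against 144 ± 178 CPM (SD), and the centred difference 3.55. In gene-rich cells the centred difference was 2.69, the 6 knockout cells averaging 817 ± 542 CPM and the 9 wild-type cells 223 ± 189 CPM (SD). Summed over cells, Homer1 took 819 to 839 CPM in the knockout (exact 95% Poisson interval, which covers counting error only) against 164 to 171 CPM in the wild type, a ratio of 4.95. The value kept its call as each cell was left out (3.35 to 3.85) and was 3.62 against the 3 wild-type D1 cells of 31 days. Of these 3, wild-type D1 cell 11, with 1511 genes, had no Homer1 read. Cells 2 and 12 had 346 and 227 CPM, so the value of 3.62 leans on the cell without a read.

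Homer2 (chromosome 7, 81600481 to 81707527, minus strand), a second coiled-coil Homer scaffold, was read in 6 of 6 knockout and 8 of 15 wild-type D1 cells. It ran from 2.43 through a median of 62.6 to 259 CPM in knockout D1 cells, against 0, 0.0937 and 91.1 CPM in wild-type D1 cells. The groups overlapped, with 2 of the 6 knockout cells above every wild-type cell, a count without a share of all genes beside it. The centred difference was 2.56, and 2.23 in gene-rich cells. Homer3 (chromosome 8, 70282827 to 70294361, plus strand), the third scaffold, was read in 1 of 6 knockout cells, at 39.98 CPM, and in 2 of 15 wild-type D1 cells. Its centred difference of -0.48 passed no limit (-1.27 without that knockout cell, cell 4, and 0.10 in gene-rich cells). Before the median was subtracted, the difference was 0.50, so the negative sign comes from centring. Of the 3440 exon bases of Homer3, 874 are shared with Ddx49, so part of its counts is uncertain.

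Grm5 (chromosome 7, 87584168 to 88134907, plus strand) encodes mGluR5, the group 1 receptor at the centre of the fragile X account. It had 1.55, 197 and 1074 CPM at the lowest, median and highest of the knockout D1 cells, against 0, 11.5 and 717 CPM in wild-type D1 cells. The knockout cells were spread over nearly the whole wild-type range, with 1 above it, and knockout D1 cell 5 held 64.9% of the knockout counts. The centred difference was 1.37, but 0.61 without that cell, 2.56 without knockout D1 cell 4 and 0.33 in gene-rich cells, where the 6 knockout cells averaged 310.1 ± 394 CPM and the 9 wild-type cells 288 ± 277 CPM (SD). The call for Grm5 did not hold among gene-rich cells.

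Among the inhibitory receptors, Grm7 (chromosome 6, 110645581 to 111567230, plus strand), a group 3 receptor of low glutamate affinity found in active zones, was read in 6 of 6 knockout and 7 of 15 wild-type D1 cells. Its CPM ran from 5.36 through 160 to 417 in knockout D1 cells, against 0, 0 and 437 in wild-type D1 cells. No knockout cell exceeded the highest wild-type cell, and all 6 exceeded the wild-type median. The centred difference was 3.49 and stayed between 3.14 and 4.33 as each cell was left out, with 2.85 in gene-rich cells. In CPM of summed counts the ratio of knockout to wild-type D1 cells was 1.89. An overlapping gene shares 130 of its 5886 exon bases.

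Grm2 (chromosome 9, 106643095 to 106656082, minus strand) encodes mGluR2, a group 2 receptor that limits glutamate release. It was read in 4 of 6 knockout and 4 of 15 wild-type D1 cells. The knockout cells had 0, 185 and 978 CPM at the lowest, median and highest, and the wild-type D1 cells 0, 0 and 289 CPM. In 3 of the 6 knockout cells the level exceeded that of every wild-type D1 cell, and in the 2 knockout cells without a read it lay at the bottom of the wild-type range. How many of all genes reach 3 of 6 was not computed. The centred difference was 2.63, and 2.11 in gene-rich cells. Of its 4894 exon bases, 470 are shared with an overlapping gene.

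Grm8 (chromosome 6, 27275119 to 28135178, minus strand), a group 3 receptor of high glutamate affinity, had a centred difference of 1.32. It lost its call without knockout D1 cell 6 (0.76), in gene-rich cells (0.67) and against the wild-type D1 cells of 31 days, where its sign turned (-0.55); without knockout D1 cell 3 it was 2.26. Grm3 (chromosome 5, 9485541 to 9725170, minus strand), the group 2 receptor mGluR3, was read in 2 of 6 knockout and 3 of 15 wild-type D1 cells, and Grm4 (chromosome 17, 27422387 to 27521403, minus strand), a group 3 receptor best known from the cerebellum, in 4 of 6 and 4 of 15. Their centred differences of -0.80 and -0.24 passed no limit, but Grm3 was called lower without knockout D1 cell 2 (-1.26) or without cell 1, and Grm4 without cell 1 (-1.53). Before the median of 0.98 was subtracted, the differences over all cells were positive, 0.18 for Grm3 and 0.74 for Grm4. Their negative signs thus come from centring. In gene-rich cells they stood at 0.15 and -0.18. Nearly all Grm4 counts of the knockout D1 cells (98%) came from cell 1.

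Age went with genotype in this comparison. Of the 6 knockout D1 cells 5 came from 32 days and 1 from 31 days, and the only wild-type D1 cells of those ages were 3 of 31 days, 1 of them with 1511 genes. Against these 3 cells, 2 of the 9 genes were called higher, Homer1 (3.62) and Homer2 (1.06), and Grm3 was called lower (-3.84). The share of all genes called against these cells was not computed. The cell with 1511 genes weighed on these values. It had no read of Homer1 or Homer2, and 316 CPM of Grm3 against 0 and 68.5 CPM in wild-type D1 cells 2 and 12. Grm7 (0.47), Grm2 (0.16) and Grm5 (0.26) then lay near the median of all genes. Apart from these 3 cells, genotype and age cannot be told apart here.

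In D2 neurons the same question gave another picture. Of the 9 genes 0 were called higher in knockout D2 cells and 6 lower (Homer3, Grm8, Grm2, Grm4, Grm7 and Homer2), where 20.9% of the 11222 measured genes were called higher and 19.1% lower. In gene-rich cells the same 6 were called lower and 0 higher, with no share of all genes computed for these cells. The median centred difference was -1.42, also with the 2 genes without reads in knockout D2 cells set to their bounds.

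Homer3 stood lowest. It was read in 2 of 7 knockout D2 cells, with 3 counts in all and at most 0.362 CPM, against 12 of 26 wild-type D2 cells with up to 432 CPM. Summed over cells it took 0.0712 CPM in the knockout (exact Poisson interval 0.0147 to 0.208) and 67.1 CPM in the wild type (65.5 to 68.8). The centred difference was -3.05, and -3.46 in gene-rich cells. The groups overlapped at the bottom, since 14 of 26 wild-type D2 cells had no read either. With each cell thinned to 250000 reads, Homer3 was read in 0 of 7 knockout and 10 of 26 wild-type D2 cells.

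Grm2 and Grm4 were at 0 reads in all 7 knockout D2 cells, and up to 41% of such cells could still carry reads (exact Clopper-Pearson upper bound at 95%). In wild-type D2 cells Grm2 was read in 8 of 26 and Grm4 in 7 of 26. These shares, 30.8% and 26.9%, lie below that upper bound. Against a floor of 3 counts over all knockout D2 cells, the summed wild-type counts of Grm2 (34.1 CPM) stood at least 479-fold higher. Those of Grm4 (27.2 CPM) stood at least 383-fold higher. Both bounds cover counting error only. They are no minimum for the difference between groups of cells, since most wild-type D2 cells had no read either. Single wild-type D2 cells weighed on both bounds: without cell 26, with 46.2% of the Grm2 counts, that of Grm2 was 279-fold, and without cell 17, with 75.9% of the Grm4 counts, that of Grm4 was 98.2-fold. In the 6 gene-rich knockout D2 cells both were likewise at 0, against 8 of 13 and 7 of 13 gene-rich wild-type D2 cells.

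Grm8 was read in 2 of 7 knockout and 14 of 26 wild-type D2 cells. It ran from 0 through a median of 0 to 119 CPM in the knockout, against 0, 1.55 and 1153 CPM in the wild type. The knockout cells lay within the wild-type range, and 5 of them at its bottom. The centred difference was -2.27 and kept its call under all 11 alternative settings and with each cell left out. In gene-rich cells it was -3.76, with reads in 2 of 6 knockout and 12 of 13 wild-type D2 cells.

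Grm7 was read in 5 of 7 knockout and 14 of 26 wild-type D2 cells, but at 1 CPM or more in 3 of 7 and 14 of 26. The median was 0.26 CPM in knockout D2 cells against 3.91 CPM in wild-type D2 cells, and the mean 52.1 ± 80.8 against 128 ± 230 CPM (SD). Its centred difference was -1.42 (-0.91 without knockout D2 cell 2, -0.85 without cell 3, and -2.97 in gene-rich cells). Homer2 was at the limit, with -1.03. It lost its call when any of 4 knockout D2 cells (-0.47 to -0.95) or of 8 wild-type D2 cells (-0.75 to -0.99) was left out, stood at -1.89 without knockout D2 cell 4 and at -1.10 in gene-rich cells, and turned to 0.50 against the 5 wild-type D2 cells of 31 and 32 days.

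Grm5 and Homer1 lay just short of a call in the other direction. Grm5 had 0, 227 and 570 CPM at the lowest, median and highest of the knockout D2 cells, against 0, 22.8 and 762 CPM in wild-type D2 cells, a centred difference of 0.97. Homer1 had 7.96, 146 and 589 CPM in knockout D2 cells, against 0, 129 and 748 CPM in wild-type D2 cells, also 0.97. Neither group of knockout cells left the wild-type range. In gene-rich cells Grm5 stood at -0.99 and Homer1 at 0.00, and in summed counts Grm5 had 144 CPM in the knockout against 291 CPM in the wild type. Leaving out single cells moved Grm5 between 0.37 and 1.66 and Homer1 between 0.57 and 1.31, across the limit. Against the 5 wild-type D2 cells of 31 and 32 days Homer1 (2.87) and Grm5 (1.18) were called higher, Grm4 (-2.20), Grm8 (-1.49), Grm7 (-1.16) and Grm3 (-1.83) lower. The median subtracted in this subset was 0.985, against 0.56 over all cells, and no share of all genes called was computed. Of these 5 cells, cells 2, 5 and 11 were not gene-rich (1789, 2067 and 2290 genes). They had no read of Homer1, Grm3, Grm4, Grm7 or Grm8, and 0, 0 and 1 counts of Grm5. The gene-rich cells 3 and 4 had 217 and 219 CPM of Homer1 and 524 and 357 CPM of Grm5. Of the 5 cells, Grm4 was read only in cell 4 (66.8 CPM), and Grm3, Grm7 and Grm8 only in cells 3 and 4. The 4 lower calls therefore lean on these cells and on the subtracted median. Grm2 and Homer3 had no reads in any of these 5 cells, so a lower level in the knockout could not be seen there. The direction of Grm5 and Homer1 in D2 cells therefore depended on the cells and on the measure. Grm3 (2 of 7 against 6 of 26 cells) had a centred difference of 0.16, with 89% of the knockout counts in cell 7, and 0.68 in gene-rich cells.

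**Figure D3:**
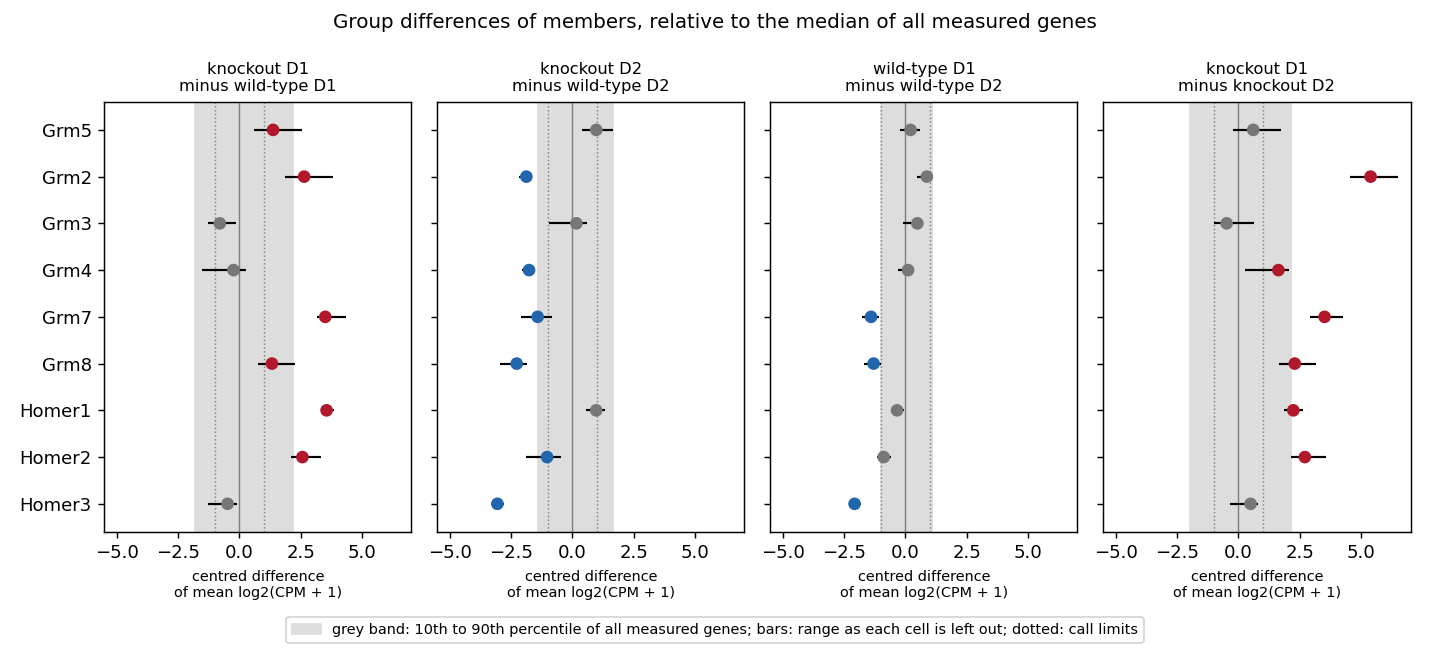
Centred differences of mean log2(CPM + 1) for the 9 genes in 4 comparisons, each named group minus the second. Red points are called higher (1 or more), blue lower (-1 or less) and grey neither; black bars give the range as each cell is left out, and the grey band spans the middle of the distribution of all measured genes. Grm2, Grm7, Grm8 and Homer2 lie right of the upper limit in D1 and left of the lower limit in D2 cells.

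Set side by side, 4 of the 9 genes were called higher in knockout D1 cells and lower in knockout D2 cells. These were Grm2 (2.63 in D1, -1.88 in D2), Grm7 (3.49 and -1.42), Grm8 (1.32 and -2.27) and Homer2 (2.56 and -1.03). Of the 10203 genes measured in both comparisons, 3.92% had that pair of calls. In gene-rich cells 3 of the 4 kept the pair of calls (Grm2, Grm7 and Homer2), and against wild-type cells of 31 and 32 days 0 did. The share of all genes with that pair of calls was not computed in either subset. Grm8 in D1 and Grm7 and Homer2 in D2 cells also lost their call without single cells, as given above. The difference between the 2 knockout effects was not tested. The knockout groups also differed directly. Of the 9 genes 6 were called higher in knockout D1 than in knockout D2 cells and 0 lower, where 26.5% of the 10990 measured genes were called higher and 26.8% lower. In gene-rich cells the same 6 were called higher, again with no share of all genes computed. Of the markers of other cells, 3 of 3 interneuron, 2 of 2 oligodendrocyte, 2 of 5 astrocyte and 3 of 8 microglia markers were called lower in knockout D1 cells here and 1 astrocyte marker higher; their part was not tested. Grm2 had a centred difference of 5.38, with reads in 4 of 6 D1 and 0 of 7 D2 cells of the knockout. In summed counts it was at least 4332-fold above the floor of 3 counts over the knockout D2 cells, or 2535-fold without knockout D1 cell 4, which held 50.9% of the counts. Grm7 differed by 3.50, Homer2 by 2.70, Grm8 by 2.29, Homer1 by 2.23 and Grm4 by 1.63 (0.26 without knockout D1 cell 1). For Homer1, 5 of the 6 knockout D1 cells lay above the highest knockout D2 cell, as was so of 0.682% of measured genes.

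Wild-type D1 neurons were set against wild-type D2 neurons to see whether the kinds differ without the knockout. Of the 9 genes, 0 were called higher in D1 cells and 3 lower, where 12% of the 11059 measured genes were called higher and 10.2% lower. Of the markers of other cells, 3 of 7 microglia and 2 of 6 astrocyte markers were called higher in D1 cells, and 1 microglia and 1 of 4 oligodendrocyte markers lower. The 17 cells with Homer3 reads, over all groups, had a median of 7.14 CPM of interneuron markers and 7293 genes, against 2.00 CPM and 5258 genes in the 37 cells without. The part of these markers was not tested. Homer3 reads were found in 2 of 15 D1 against 12 of 26 D2 cells, with 1.64 ± 5.94 CPM against 46.4 ± 94.4 CPM (SD) and a centred difference of -2.07. Within ages its centred difference was -1.96 at 29, -1.94 at 30 and -0.87 at 34 days. At 31 days the 3 D2 cells had no Homer3 read and 1 of 3 D1 cells had 4 counts, so the uncentred difference was 0.44. Grm7 differed by -1.40 (-0.83 without the cells of 29 days) and Grm8 by -1.30 (-0.88 without the cells of 34 days and -0.99 without wild-type D2 cell 20). At 31 days, with 3 D1 and 3 D2 cells, both lay above the median of all genes, Grm7 by 2.04 and Grm8 by 1.49. Among these, D2 cells 2 and 11 (1789 and 2290 genes) and D1 cell 11 (1511 genes) had no read of either gene. In gene-rich wild-type cells the 3 genes stayed lower in D1 (Homer3 -2.84, Grm7 -2.56, Grm8 -2.23), and Grm5 joined them at -1.46, averaging 288 ± 277 CPM over 9 D1 cells and 409 ± 236 CPM over 13 D2 cells (SD).

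**Figure D4:**
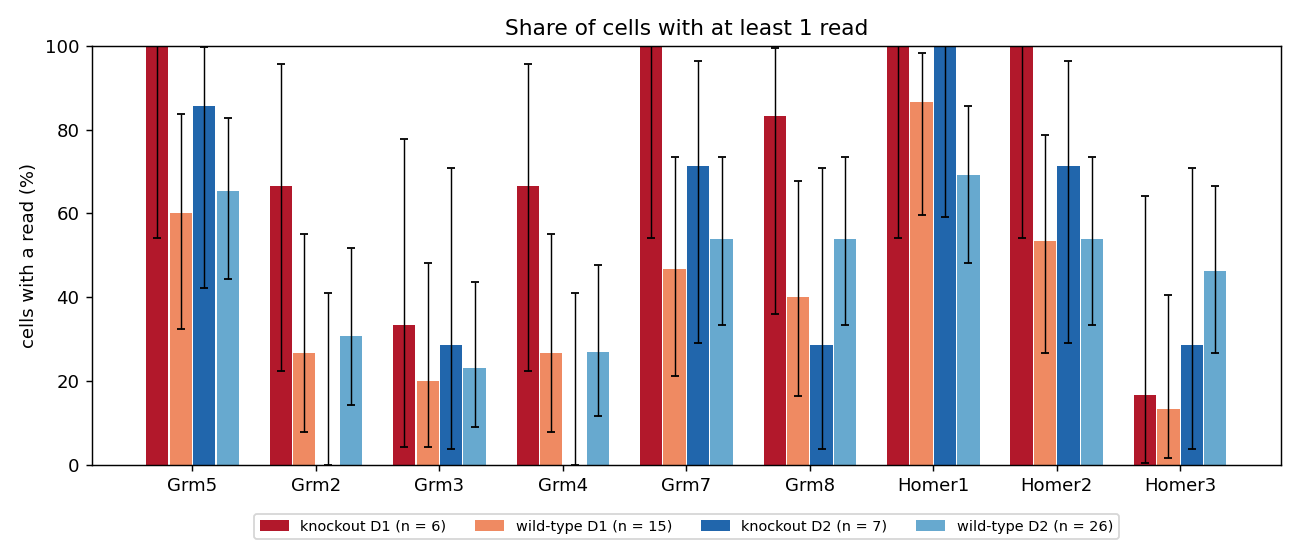
Bars give the percent of cells with at least 1 read of each gene, for knockout D1, wild-type D1, knockout D2 and wild-type D2 cells from left to right, and black lines the exact 95% Clopper-Pearson intervals, which treat cells as independent draws. Intervals are wide throughout, from 22.3 to 95.7% for Grm2 in knockout D1 cells and from 0 to 41% in knockout D2 cells.

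Partners of the receptors were read from 5 lists. Their centred differences and calls use all cells of each group and were not computed for gene-rich cells alone. The part of gene richness in them was not tested. Of the scaffolds and partners that bind Homer or the receptors, 12 of 23 measured genes were called higher and 4 lower in knockout D1 cells (median centred difference 1.01), against the 27.9% and 25% of all genes. Largest were Grip1, a PDZ scaffold of AMPA receptors (3.80; reads in 5 of 6 against 3 of 15 cells), and Arc, an activity-induced gene that promotes AMPA receptor endocytosis after group 1 signalling (3.65; 1212 ± 1123 CPM in knockout against 422 ± 627 CPM in wild-type D1 cells, SD). At the other end stood Ncdn, or norbin, a binding partner of mGluR5 (-1.38), and the ubiquitin ligase Siah1a (-1.15). Before the median was subtracted, Ncdn stood at -0.39 and Siah1a at -0.17, so both calls rest largely on centring. In knockout D2 cells 5 of 24 were called higher and 5 lower (median 0.19), near the 20.9% and 19.1% of all genes. There Arc was the lowest (-3.17; 38.4 ± 89.1 CPM in knockout against 337 ± 467 CPM in wild-type D2 cells, SD), followed by Elfn2, a synaptic adhesion protein that recruits group 3 receptors in trans (-1.92; 0 of 7 against 9 of 26 cells). Dlgap4 (1.45) and Dlgap2 (1.42), scaffolds that join PSD-95 to Shank, led the higher end. The mean of Dlgap4 went the other way, with 137 ± 76.7 CPM in knockout against 188 ± 298 CPM in wild-type D2 cells (SD).

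Gq signalling genes, the path of group 1 receptors, were called higher for 5 and lower for 1 of 17 in knockout D1 cells (median 0.52; all genes 27.9% and 25%), and higher for 4 and lower for 5 of 18 in knockout D2 cells (0.24; all genes 20.9% and 19.1%). In D1 cells the ends were Trpc1, a cation channel opened downstream of group 1 receptors (2.79), and Prkca, protein kinase C alpha (2.78), against Gnaq, the Gq alpha subunit (-1.49), and Prkce (-0.70). Before the median was subtracted, Gnaq stood at -0.50 and Prkce at 0.28. In D2 cells Gnaq (1.47) and the diacylglycerol lipase Daglb (1.46) stood highest, and Trpc4 (-1.82) and Rgs4, which shortens Gq and Gi signals (-1.59), lowest. The mean of Daglb went the other way, with 164 ± 89.1 CPM in knockout against 180 ± 250 CPM in wild-type D2 cells (SD). Gnaq had opposite calls in the 2 comparisons, lower in D1 and higher in D2, as did 4.78% of the 10203 genes measured in both.

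Gi/o signalling genes, the path of groups 2 and 3, were called higher for 4 and lower for 3 of 22 in knockout D1 cells (median 0.08; all genes 27.9% and 25%), and higher for 6 and lower for 3 of 22 in knockout D2 cells (0.41; all genes 20.9% and 19.1%). Gnai1, an inhibitory alpha subunit, was higher in both (3.24 in D1, 2.77 in D2), with the adenylyl cyclase gene Adcy9 (3.17) in D1 and Gnaz, another inhibitory alpha subunit (3.59), in D2 cells. The lowest were the potassium channel Kcnj3 (-2.06) and Adcy8 (-1.53) in D1, and the potassium channel Kcnj6 (-2.53) and Adcy5 (-1.77) in D2 cells.

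Kinases and translation factors downstream of group 1 receptors were called higher for 8 and lower for 5 of 24 in knockout D1 cells (median 0.38; all genes 27.9% and 25%), and higher for 5 and lower for 8 of 24 in knockout D2 cells (0.21; all genes 20.9% and 19.1%). Besides Arc, which is in this list too, Mtor, the kinase that promotes translation, was highest in D1 cells (2.92), and Map2k1 (-2.67) and Mapk3 (-2.27) of the ERK cascade lowest. In D2 cells Akt1 (1.72) and Ptpn5, the phosphatase STEP (1.59), were highest, and Mknk1, a kinase of the cap-binding factor, was lowest after Arc (-2.03; 0 of 7 against 8 of 26 cells). Of the genes that make, pack and clear glutamate or the group 2 agonist NAAG, 3 were called higher and 1 lower of 9 in knockout D1 cells (median 0.46; all genes 27.9% and 25%). Gls2, a glutaminase, had a centred difference of 1.54, Glul, the glutamine synthetase of astrocytes, was lowest (-3.26), and the NAAG synthase Rimkla had -0.38 (0.61 before the median was subtracted). In knockout D2 cells 0 were called higher and 2 lower of 10 (median 0.37; all genes 20.9% and 19.1%): Glul (-2.61) and the astrocyte transporter Slc1a3 (-1.69), while Slc17a6 (0.66) and Rimkla (0.64) were at the upper end.

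Markers of other cells were present in these pipette samples. All 6 pyramidal neuron markers had reads in each group. Astrocyte markers summed to 285 to 1282 CPM in knockout D1, 0 to 12410 CPM in wild-type D1, 146 to 1307 CPM in knockout D2 and 1.47 to 11696 CPM in wild-type D2 cells; Gfap and Aldh1l1 were at 0 in knockout D1 and Aldh1l1 in knockout D2 cells. Grm3 and Grm5 are also made by astrocytes. The 13 cells with Grm3 reads had a median of 352 CPM of astrocyte markers and 7098 genes, against 882 CPM and 6047 genes in the 41 cells without. The 38 cells with Grm5 reads had 537 CPM and 6796 genes, against 2636 CPM and 2365.5 genes in the 16 without. In knockout against wild-type D1 cells, 3 of 6 measured astrocyte, 6 of 7 microglia and 3 of 3 interneuron markers were called lower and 0 higher, where 25% of all genes were called lower and 27.9% higher. Microglia markers summed to 0.453 to 1393 CPM in knockout D1 and 0 to 6592 CPM in wild-type D1 cells, with 8 of 8 read in each, and interneuron markers to at most 17 CPM in knockout D1 and 327 CPM in wild-type D1 cells, with 4 of 6 (Gad2, Slc32a1, Pvalb and Vip) at 0 in the knockout and 1 (Slc32a1) in the wild type. In knockout against wild-type D2 cells the called-lower counts were 2 of 5 for astrocyte, 2 of 7 for microglia and 0 of 5 for interneuron markers, where 19.1% of all genes were called lower. Their part in the differences of the 9 genes was not tested.

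Pairs of members were also compared cell by cell. Homer1 and Grm5 were both read in 34 of 54 cells and neither in 6. Over the 34 gene-rich cells Spearman's rho between their levels was 0.15. It was highest between Grm2 and Grm7 (0.56), Grm7 and Homer2 (0.55) and Grm2 and Homer2 (0.54). Across the same 34 cells the genes most like Homer1 in level were Fbxo33 (rho 0.73), Tmem132b (0.67) and Rfwd2 (0.65). Those most like Grm5 were Rpn1, of the oligosaccharyltransferase (0.69), Ppan (0.68) and St7 (0.67), and those most like Grm7 were Ptprs, a synaptic receptor phosphatase (0.71), Guf1 (0.70) and Tsc1, an inhibitor of mTOR complex 1 (0.70). Grm8 was most like Kcnj6, a potassium channel that Gi/o-coupled receptors open (0.76), Syt1, the calcium sensor of vesicle release (0.72), and Hspa5 (0.71). Homer2 was most like Runx1t1 (0.69), Snap23 (0.62) and Letm2 (0.62). These are the highest values among 7164 genes, the cells share library depth and groups, and the values describe these cells only.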

How the data were processed

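Libraries were made from the total RNA of single-cell cytosol with Nextera XT, per the labels' protocols. Trimmomatic, STAR, featureCounts and GRCm38 are named in the submitters' processing notes; no version, setting or strand use is stated there. The authors deposited whole-number read counts per gene symbol (22800) and per Ensembl identifier (22880), in which all 9 genes had equal counts in every cell, and a normalized signal table, used as an alternative, that holds the counts times 1 factor per cell. Each of these tables has 2 columns that matched no sample label and were not used. A single knockout D1 cell, marked as failing quality control, was kept out of all comparisons.

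CPM used each cell's total over genes, a pseudocount of 1 and equal weight per cell. A gene counted as measured with a mean of 1 CPM or more and reads in 10% or more of the cells in that comparison. Shares carry exact Clopper-Pearson intervals at 95%. Intervals and floors cover counting error only, since reads were amplified without molecular identifiers. Depth from 260943 to 10673072 counts limits genes of few reads. Positions, exon lengths and coding sequences came from GENCODE vM21. All 9 genes are named, with the 2 genes of largest centred difference per direction, list and knockout comparison (1 of them is not reported here), and the 3 genes of highest rho for members read in at least 50% of gene-rich cells. The genes and lists were chosen with earlier results of these data known. Alternatives changed the scaling (TMM of edgeR 4.0.16, DESeq2 1.42.0 size factors), pseudocount, filter, cells and ages; thinning, the limit of 1 CPM and fold bounds without the cell of most counts were added after seeing the data. Python 3.11.15, numpy 2.4.6, pandas 2.3.3, scipy 1.17.1, matplotlib 3.10.9 and R 4.3.3 were used, and the procedure was tested on simulated data. The simulated cells differed in depth but, apart from the genes changed, drew on a common profile. That test therefore does not cover groups that differ in gene richness.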

Additional observations from a re-analysis of the deposited data

Results flagged for a closer look

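In 4 of 16 sets of knockout values checked, 1 cell lay far from the others of its group on the log2(CPM + 1) scale. Chance marks about 1 in 20 sets of continuous values, a rate that does not hold for sets made mostly of 0, where 1 cell with reads is marked by construction. Homer1 reached 10.9 in knockout D1 cell 4, against 8.68 to 9.43 in the other knockout D1 cells. The same cell was the only knockout D1 cell with Homer3 reads, at 5.36. Grm4 reached 8.61 in knockout D1 cell 1, against 0 to 2.34 in the others. Grm3 reached 7.96 in knockout D2 cell 7, against 0 to 3.29 in the others. Grm3 was at 0 in 5 of 7 knockout D2 cells, Homer3 in 5 of 6 and Grm4 in 2 of 6 knockout D1 cells.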

How the results depend on the processing

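In knockout against wild-type D1 cells, 2 were called higher and 1 lower at 31 and 32 days, and 5 to 6 higher and 0 to 2 lower as each cell was left out. In knockout against wild-type D2 cells, 2 were called higher with TMM, the authors' normalized table, a pseudocount of 0.1, no filter, no centring or 31 and 32 days alone (0 to 2 as each cell was left out), and 2 lower with a pseudocount of 10 (4 to 6 as each cell was left out). In wild-type D1 against D2 cells, 1 was called lower with a pseudocount of 10, and 1 was called higher in gene-rich cells, without 34 days or at the 4 shared ages alone, and 2 without 29 days (0 to 1 higher and 2 to 4 lower as each cell was left out). Knockout D1 against D2 cells gave 5 to 7 higher and 0 to 1 lower as each cell was left out. At 31 and 32 days the called values of Grm8 in D1 (-0.55) and Homer2 in D2 cells (0.50) changed sign. Among values without a call, Grm3 in D2 (0.16 to -1.83), Grm4 in D1 (-0.24 to 0.39) and Homer3 in D1 cells (-0.48 to 0.006) did so. The causes were not tested, and shares of all genes called were not computed under these settings. Of 21 called values, 9 kept their call under all settings other than leaving out a cell, and 15 as each cell was left out. No paired analysis was possible because the labels give no replicate numbers shared between groups. Depth and gene number limit what 0 reads can show.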

Other observations

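The knockout D1 cell marked as failing quality control had 950010 counts in 995 genes and no read of any of the 9 genes.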
